A study of Mus musculus with 6 samples.

Results

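The sodium pump (Na,K-ATPase) is built from a catalytic alpha subunit, a glycosylated beta subunit and, in most tissues, a small regulatory FXYD protein. The genes described here are 2 beta subunits (Atp1b1 and Atp1b3) and 6 FXYD regulators (Fxyd1 to Fxyd6), taken from the table by a list of gene symbols, with no threshold on their values. They are 8 of the 23873 rows of the expression table, and all 8 had values and passed the filter on low expression. The data come from kidneys of mice 8 weeks old, in 2 groups of 3 RNA-seq libraries. The first group, WT, is labelled wild type. The second, NICD2_Pax8, has the genotype R26NICD2/+pax8cre: 1 copy of a Rosa26 allele for an active Notch2 fragment, and a Cre recombinase under Pax8, a gene of the renal tubule and collecting duct epithelium. The series title names the driver Pax-rtTA where the labels say pax8cre, and the WT library titles also begin with NICD, so it cannot be told here which driver was used or whether WT kidneys carried the allele. No inducing drug is named. The labels do not say that each library is a separate mouse, so the p-values speak for the scatter among these 6 libraries and no more, and part of that scatter may be technical.

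As background, the pump sits in the basolateral membrane of tubule cells and moves sodium out and potassium in, and the gradient it makes drives sodium uptake through apical channels and carriers. The beta subunit folds the alpha subunit and carries it to the membrane. FXYD proteins cross the membrane once and tune the affinity and rate of the pump, and different nephron segments use different ones. Fxyd2, the gamma subunit, is the main one of the kidney tubule, and Fxyd4 (CHIF) is that of the collecting duct.

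A row named NOTCH2 in capitals was at 1.27 to 3.75 FPKM (fragments per kilobase of transcript, scaled to library size) in WT and 500.49 to 570.42 in NICD2_Pax8, and the kidney gene Umod was at 658.06 to 1610.81 FPKM over the 6 libraries. Depth was estimated at 14600000 to 17800000 fragments, at which 1 FPKM of a transcript of 1 kb stands for about 12.6 to 15.1 fragments. WT replicate 1 stood apart: 5 adrenal cortex markers summed to 3629 FPKM there against 1.39 to 1.63 in the other 5 libraries, and 6 fat markers to 4395 against 67.6 to 915.4. Results that rest on it are therefore given with and without it. The 10 most abundant genes took 17.4% to 23.4% of the summed FPKM in WT and 6.65% to 7.62% in NICD2_Pax8, and the median log2 fold change over all genes tested was 0.32. After median-of-ratios scaling, which centres the libraries on their typical gene, it was 0.02, so the members' differences are given on both scales, and list counts that differ after scaling are given beside the others.

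The 6 FXYD genes share a short stretch of coding sequence around the 4 codons that give the family its name, shown here because it is what makes them members of the same family although their levels and their changes differed. Each line is 45 coding bases from a GENCODE M21 transcript (GRCm38), 5′ to 3′, with the 12 bases of those 4 codons in capitals.
Fxyd1: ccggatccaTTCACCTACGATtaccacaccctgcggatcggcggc
Fxyd2: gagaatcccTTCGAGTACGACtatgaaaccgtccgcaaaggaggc
Fxyd3: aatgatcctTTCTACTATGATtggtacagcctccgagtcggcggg
Fxyd4: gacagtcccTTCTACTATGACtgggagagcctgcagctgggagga
Fxyd5: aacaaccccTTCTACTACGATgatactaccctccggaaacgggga
Fxyd6: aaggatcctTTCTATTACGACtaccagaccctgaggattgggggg

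A proline codon stood directly before the capitals in 6 of 6 genes. In 6 of 6 an intron interrupted the capitals after the base numbered 10, so the motif is split over 2 exons at the same place. The 15 pairs of sequences shared 25 to 33 of the 45 bases, and the pair with the most shared bases was Fxyd1 and Fxyd6. Position in the protein differed: the motif was at codons 17 to 20 of 64 in Fxyd2, at codons 29 to 33 of 88 to 94 in Fxyd1, Fxyd3, Fxyd4 and Fxyd6, and at codons 135 to 138 of 178 in Fxyd5, which has a long extracellular part ahead of it.

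In the file's positions (GRCm38), 3 of the FXYD genes lie close together on chromosome 7, all on the minus strand. Fxyd5 (chr7:31032723-31042331), Fxyd7 (chr7:31042515-31051454) and Fxyd1 (chr7:31051678-31055873) follow each other with 183 and 223 bases between them, and Fxyd3 (chr7:31070535-31076697) lies 28203 bases from Fxyd5. Fxyd6 (chr9:45369470-45396159) and Fxyd2 (chr9:45399700-45410278) are on the plus strand of chromosome 9 with 3540 bases between them. The others stand alone: Fxyd4 at chr6:117933558-117937714, Atp1b1 at chr1:164437099-164458355 and Atp1b3 at chr9:96332655-96364431, all on the minus strand. Of the near neighbours, Fxyd5 rose and Fxyd1 fell, while Fxyd7 was too low to test, at 0.25 to 1.38 FPKM, and Fxyd2 fell beside Fxyd6, which did not pass the test.

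On the FPKM scale, which is per length and allows levels of different genes to be compared, Fxyd2 was the most abundant of the 8 in every library and Atp1b1 came next. In WT, Fxyd2 averaged 3773 ± 489 FPKM and Atp1b1 1054 ± 272 (SD, n = 3), and the ranges of these 2 genes and of Atp1b3, at 46.30 to 59.94 FPKM, did not overlap. Below them the order in WT was Fxyd1, Fxyd4, Fxyd5, Fxyd6 and Fxyd3 by mean, but the ranges of neighbours in that order overlapped. In NICD2_Pax8, Fxyd2 averaged 1333 ± 420 FPKM and Atp1b1 873 ± 103 (SD, n = 3), and their ranges overlapped. Next came Atp1b3 and then, ahead of Fxyd4 and Fxyd1, which had stood above it by mean in WT, Fxyd5 at 38.64 to 47.48 FPKM against Fxyd4 at 23.28 to 25.73 FPKM.

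**Figure D1:**
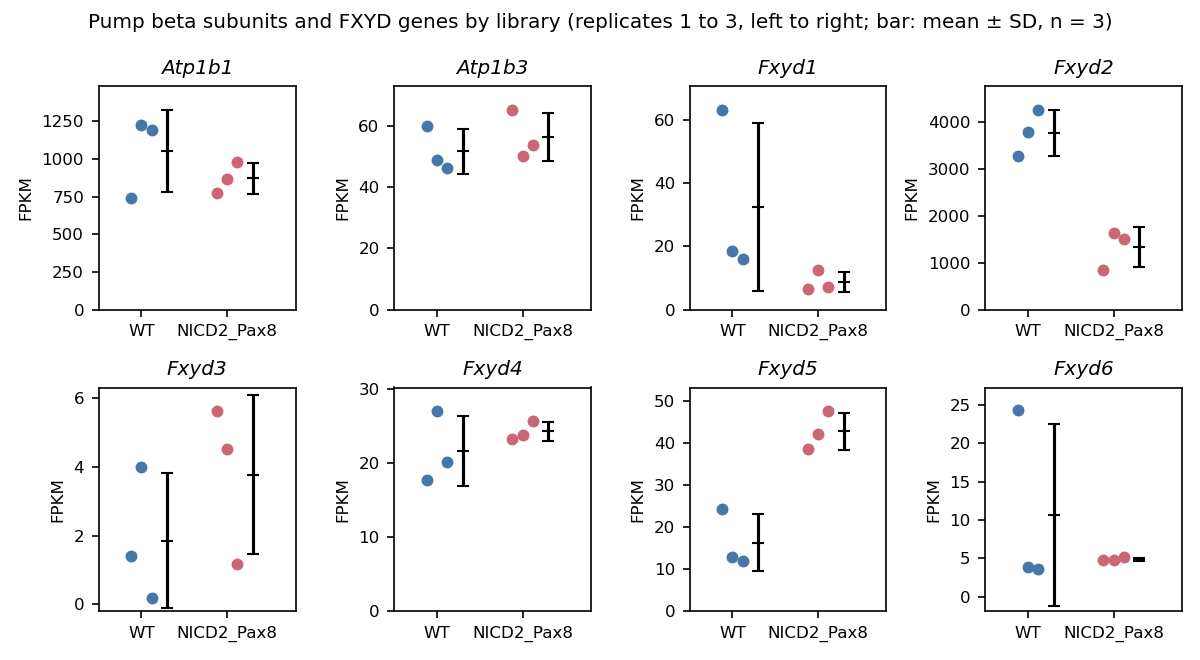
FPKM (vertical axes, a separate scale for each gene) of the 8 genes in the 3 WT and 3 NICD2_Pax8 libraries; each point is a library, in replicate order from left to right, and the bar is the mean ± SD. Fxyd2 and Fxyd1 lie lower in all 3 NICD2_Pax8 libraries and Fxyd5 higher, and the first WT point of Fxyd1 and Fxyd6 stands far above the other points.

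Between the groups, 3 of the 8 genes changed past an adjusted p of 0.05 (limma on log2(FPKM + 1), Benjamini-Hochberg over 13500 genes): Fxyd5 rose, and Fxyd2 and Fxyd1 fell. Of all genes tested 61.4% were called, 45.1% higher and 16.2% lower, so 3 of 8 is no more than the background. The groups did not overlap in FPKM for the same 3 genes, as they did not for 68.7% of all genes (49.9% higher, 18.8% lower). After scaling the same 3 were called, against 54.4% of all genes (28.7% higher, 25.7% lower). The median log2 fold change of the 8 was -0.06 against 0.32 over all genes, and -0.41 against 0.02 after scaling. Without WT replicate 1, 5 of the 8 were called, with Atp1b1 lower and Fxyd6 higher in addition, against 66% of the 13182 genes tested then (50.4% higher, 15.6% lower), so this count too is no more than the background. In the authors' deposited table, 4 of the 8 had q under 0.05 (Atp1b1, Fxyd1 and Fxyd2 lower, Fxyd5 higher), against 42.8% of the 19439 genes with a q there (21.3% higher, 21.5% lower). In whole kidney, fewer cells of a type and less RNA per cell cannot be told apart, for these genes and for those named further on.

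**Figure D2:**
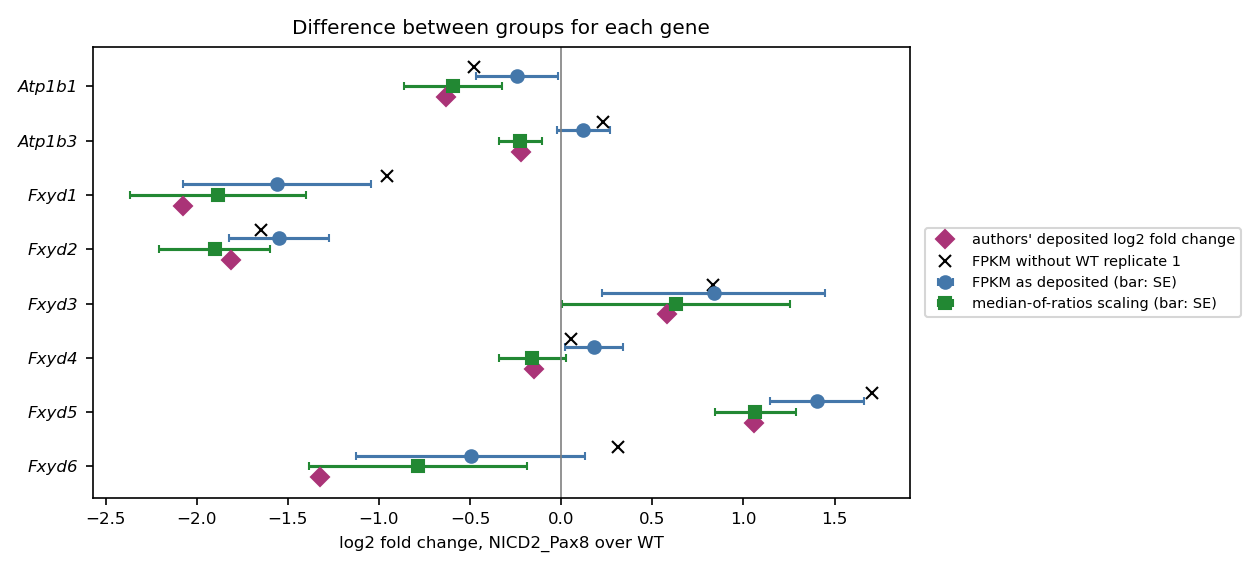
Log2 fold change of NICD2_Pax8 over WT (horizontal axis) for each of the 8 genes: from FPKM as deposited (circles, bar SE), after median-of-ratios scaling (squares, bar SE), without WT replicate 1 (crosses) and as given in the authors' deposited table (diamonds). Fxyd2 and Fxyd1 are below 0 and Fxyd5 and Fxyd3 above 0 in all 4, whereas Atp1b3, Fxyd4 and Fxyd6 lie on both sides of 0.

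Atp1b1, the main beta subunit of the nephron, was at 740.53, 1228.59 and 1193.08 FPKM in WT replicates 1 to 3 and at 771.33, 870.46 and 977.80 FPKM in NICD2_Pax8. The groups overlapped because WT replicate 1 was lowest of all 6 libraries. The difference was -0.24 on the log2 scale (SE 0.225, 95% interval -0.78 to 0.29, adjusted p = 0.381, limma), and -0.59 after scaling (adjusted p = 0.105). Without WT replicate 1 it was -0.48 (adjusted p = 0.026, limma), and with scaling as well -0.89 (adjusted p = 0.00486). Within the limma settings this library therefore decides the call. In the authors' deposited table, which includes WT replicate 1, the log2 fold change was -0.63 with q = 0.04, so the call also depends on the method.

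Atp1b3, a beta subunit found in many tissues, was at 59.94, 48.75 and 46.30 FPKM in WT and at 65.16, 50.05 and 53.70 FPKM in NICD2_Pax8. The groups overlapped, and the difference did not pass the test in any of the settings tried. It was 0.12 on the log2 scale (95% interval -0.22 to 0.47, adjusted p = 0.493, limma), and its sign turned with scaling, to -0.23 (adjusted p = 0.146). Within a library, where scaling plays no part, Atp1b1 was 20.0 times Atp1b3 in WT and 15.5 times in NICD2_Pax8 (geometric means). The log2 ratio was 4.32 ± 0.60 against 3.96 ± 0.34 (SD, n = 3; exact two-sided permutation p = 0.4), and the ratios of the groups overlapped. The difference of -0.37 between these log2 ratios was -0.71 without WT replicate 1.

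Fxyd2 had the largest drop of the 8 genes in FPKM units. It was at 3279.28, 3781.69 and 4257.80 FPKM in WT and at 853.64, 1639.97 and 1504.49 FPKM in NICD2_Pax8. The highest NICD2_Pax8 library lay below the lowest WT library, and NICD2_Pax8 replicate 1 was lowest of all. Mean FPKM was 2.83-fold lower, with a log2 fold change of -1.55 (SE 0.273, 95% interval -2.20 to -0.90, adjusted p = 0.00275, limma), or -1.90 after scaling. The fall passed the test in all 14 alternatives tried, including each library left out in turn, and the authors' deposited table gives -1.81 with q = 1.19e-09.

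Many markers of the segments that use Fxyd2 were lower too, where 16.2% of all genes were. All 8 proximal tubule markers were lower, summing to 3066 to 4264 FPKM in WT and 128.1 to 490.3 FPKM in NICD2_Pax8, led by the phosphate carrier Slc34a1. NICD2_Pax8 replicate 1, the library lowest in Fxyd2, also had the lowest sum. Of the thick ascending limb markers 5 of 6 were lower, but their sums overlapped, at 1180 to 2394 FPKM in WT and 1056 to 1727 FPKM in NICD2_Pax8. Umod, by far the most abundant of them, was not called, with means of 1118 and 1346 FPKM (adjusted p = 0.455, limma). Of the distal convoluted tubule markers 4 of 5 were lower, led by Slc12a3, and Wnk4 was 2.22-fold higher, and their sum was 408.7 to 527.0 FPKM in WT and 123.5 to 155.6 FPKM in NICD2_Pax8. The part of these segments in the change of Fxyd2 was not tested.

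Fxyd5 (dysadherin), an FXYD protein known for weakening cell to cell adhesion, was at 24.19, 12.90 and 11.80 FPKM in WT and at 38.64, 42.02 and 47.48 FPKM in NICD2_Pax8. The 3 NICD2_Pax8 libraries were above the 3 WT libraries, and WT replicate 1 was highest in its group. Mean FPKM rose 2.62-fold, with a log2 fold change of 1.40 (SE 0.258, 95% interval 0.79 to 2.02, adjusted p = 0.00332, limma), or 1.07 after scaling (adjusted p = 0.00703). Without WT replicate 1 the rise was 3.46-fold, and the call held in all 14 alternatives. The authors' deposited table gives 1.06 with q = 0.000448.

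Beside it, 4 of 7 leukocyte markers tested were higher (6 of 7 without WT replicate 1), where 45.1% of all genes were, and the 9 listed summed to 300.7 to 551.7 FPKM in WT, highest in replicate 1, and to 1246 to 1702 FPKM in NICD2_Pax8, most of it Cd74. The general leukocyte gene Ptprc was not called with all libraries but was without WT replicate 1 (adjusted p = 0.0253, limma), at 2.61 to 5.53 FPKM in WT and 4.04 to 4.95 FPKM in NICD2_Pax8. Of the smooth muscle and pericyte markers 5 of 8 were higher, or 4 of 8 after scaling, led in abundance by Tagln and Acta2. Of the fibroblast markers 3 of 6 were higher, Col3a1 the most abundant, and 2 lower, or 3 lower after scaling. Endothelial markers were lower in 5 of 6 (6 of 6 after scaling), led by Emcn, and summed to 116.4 to 148.0 FPKM in WT and 51.8 to 68.6 FPKM in NICD2_Pax8. After scaling, 4 of 7 leukocyte, 4 of 8 smooth muscle and pericyte and 3 of 6 fibroblast markers were higher, where 28.7% of all genes were. Without WT replicate 1, 50.4% of all genes were higher. Lower were 16.2% of all genes, or 25.7% after scaling. The lists are short and no set test was run, and the part of these cells in the rise of Fxyd5 was not tested.

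Fxyd1 (phospholemman), known from heart and muscle, was at 63.13, 18.46 and 16.02 FPKM in WT and at 6.50, 12.45 and 7.20 FPKM in NICD2_Pax8. The groups did not overlap, but WT replicate 1 was more than 3 times either of the other WT libraries. Mean FPKM was 3.73-fold lower with that library and 1.98-fold lower without it. The log2 fold change was -1.56 (SE 0.517, 95% interval -2.79 to -0.33, adjusted p = 0.035, limma) with it and -0.96 (adjusted p = 0.0199) without it. After scaling it was -1.88 with all libraries (adjusted p = 0.0156). The call was lost without NICD2_Pax8 replicate 1 (adjusted p = 0.108), without NICD2_Pax8 replicate 3 (adjusted p = 0.0944) and with no filter on low expression (adjusted p = 0.0613). The authors' deposited table gives -2.08 with q = 0.000495.

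Fxyd6 (phosphohippolin), known best from brain, was at 24.38, 3.91 and 3.58 FPKM in WT and at 4.74, 4.77 and 5.13 FPKM in NICD2_Pax8. WT replicate 1 alone was high, and the other WT libraries were below all 3 NICD2_Pax8 libraries. The log2 fold change was -0.50 with all libraries (95% interval -1.996 to 1.002, adjusted p = 0.519, limma) and 0.31 without WT replicate 1 (adjusted p = 0.0439). After scaling it was -0.79 with that library (adjusted p = 0.302) and -0.03 without it (adjusted p = 0.832), so neither direction held across the settings. The authors' deposited table, which includes WT replicate 1, gives -1.32 with q = 0.0763.

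WT replicate 1 is the library that held the adrenal and fat transcripts. Of the 5 adrenal cortex markers, led by Hsd3b1 at 1208 FPKM, 4 were at 0.17 FPKM or less in each of the other 5 libraries, and Star was at 1.32 to 1.37 FPKM there. The fat markers, led by Fabp4 at 2139 FPKM in WT replicate 1 and 45.49 to 526.85 FPKM elsewhere, were present in all libraries, and their sum was also higher in WT replicate 2, at 915.4 FPKM, than in WT replicate 3, at 164.4 FPKM, where Fxyd1 and Fxyd6 differed little. Schwann cell and nerve markers summed to 5.02 to 11.35 FPKM over the 6 libraries, and of the 2 tested Mbp was higher, a call lost after scaling. The part of adrenal, fat and nerve tissue in the values of Fxyd1 and Fxyd6 was not tested.

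**Figure D3:**
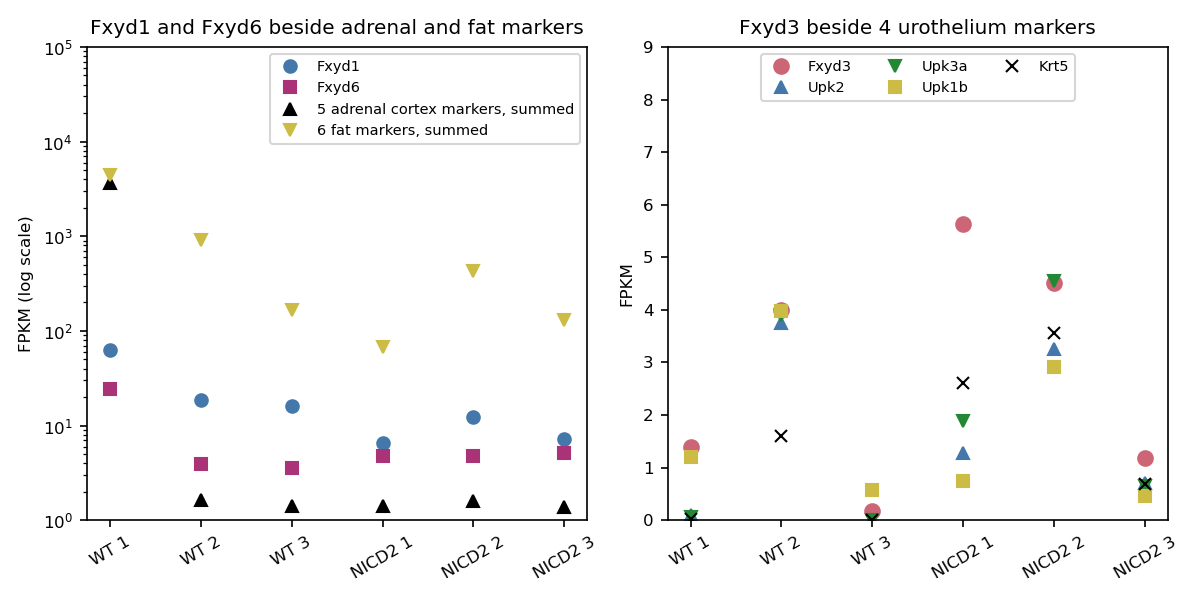
Left, FPKM on a log axis of Fxyd1 and Fxyd6 beside the summed FPKM of 5 adrenal cortex and 6 fat markers in each library; right, FPKM of Fxyd3 beside 4 urothelium markers. WT replicate 1 is highest for both FXYD genes and both marker sums on the left, and WT replicate 2 is the WT library highest in Fxyd3 and in the 4 markers on the right. Within NICD2_Pax8, Fxyd3 is highest in replicate 1 and the 4 markers in replicate 2. Upk1a and Krt20, also among the 6 listed urothelium markers, are not drawn. Both are highest in replicate 2 within WT but in replicate 1 within NICD2_Pax8.

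Fxyd4 (CHIF), the FXYD protein of collecting duct principal cells, was at 17.77, 26.99 and 20.14 FPKM in WT and at 23.28, 23.87 and 25.73 FPKM in NICD2_Pax8. The NICD2_Pax8 values lay inside the WT range. The log2 fold change was 0.18 (95% interval -0.20 to 0.56, adjusted p = 0.355, limma) and -0.16 after scaling (adjusted p = 0.49). No setting called it. Principal cell markers went both ways beside it. The water channels Aqp2 and Aqp3 fell, the sodium channel subunits Scnn1b and Scnn1g rose, and 3 of 7 did not pass. For comparison, 16.2% of all genes fell and 45.1% rose. After scaling Hsd11b2 (adjusted p = 0.0378, limma) and Avpr2 (adjusted p = 0.026) were lower as well, where 25.7% of all genes were lower and 28.7% higher. The 7 summed to 169.7 to 226.6 FPKM in WT, most abundant Hsd11b2, and to 121.7 to 178.7 FPKM in NICD2_Pax8.

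Fxyd3 (Mat-8), found in stomach, colon and other lining epithelia, was the least abundant, at 1.39, 4.0 and 0.17 FPKM in WT and at 5.64, 4.52 and 1.18 FPKM in NICD2_Pax8. The groups overlapped, and each spread widely. Its transcript has 524 bases, so these levels rest on roughly 7.8, 23.0 and 1.0 fragments in WT and 34.9, 29.9 and 7.9 in NICD2_Pax8. The log2 fold change was 0.84 (SE 0.612, 95% interval -0.62 to 2.30, adjusted p = 0.272, limma), or 0.63 after scaling (adjusted p = 0.424). The ratio of group means was 2.04 with all libraries and, with a library left out, ranged from 1.40 without WT replicate 3 (adjusted p = 0.658) to 4.85 without WT replicate 2 (adjusted p = 0.0847).

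The 3′ end of Fxyd3 overlaps Lgi4, on the opposite strand, by 401 bases, and no source used here says that strand was recorded, so reads there cannot be assigned to 1 of the genes. Lgi4 was at 0.25 to 1.70 FPKM in all libraries. Of 6 urothelium markers, Upk1b, Upk2, Upk3a and Krt5 were highest in replicate 2 and lowest in replicate 3 of both groups. Fxyd3 was also lowest in replicate 3 of both groups and highest in WT replicate 2. Within NICD2_Pax8 Fxyd3 was instead highest in replicate 1, as were Krt20 and, by little, Upk1a. The 6 summed to 2.79, 18.89 and 1.52 FPKM in WT and 57.85, 58.44 and 45.02 FPKM in NICD2_Pax8, where Upk1a, at 36.62 to 37.51 FPKM, and Krt20 made up most of it. Of the 6, 2 were called higher with and without scaling, where 45.1% of all genes were (28.7% after scaling). Upk2, Upk3a and Krt5 were at 0 in WT replicate 3. The part of urothelium in the values of Fxyd3 was not tested.

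Within each library the make-up of the FXYD genes differed between the groups. Fxyd2 made up 96.2%, 98.3% and 98.8% of the summed FPKM of the 6 FXYD genes in WT and 91.5%, 94.9% and 94.6% in NICD2_Pax8. No NICD2_Pax8 library reached a WT share, and the difference was -4.07 percentage points (exact two-sided permutation p = 0.1, the smallest that 3 against 3 libraries allow). Fxyd5 took 0.44% ± 0.24 in WT and 3.19% ± 0.87 in NICD2_Pax8, and Fxyd4 0.56% ± 0.12 and 1.83% ± 0.59 (SD, n = 3), with no overlap for either. The share of Fxyd4 was higher although its level was not called, while the sum it is taken from was smaller.

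Fxyd2 was 243 times Fxyd5 in WT and 30.1 times in NICD2_Pax8 (geometric means). The log2 ratio of Fxyd5 to Fxyd2 was -7.93 ± 0.74 against -4.91 ± 0.42 (SD, n = 3), a difference of 3.01 (exact two-sided permutation p = 0.1, again the smallest possible). Leaving out each library in turn gave differences from 2.73 to 3.43.

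**Figure D4:**
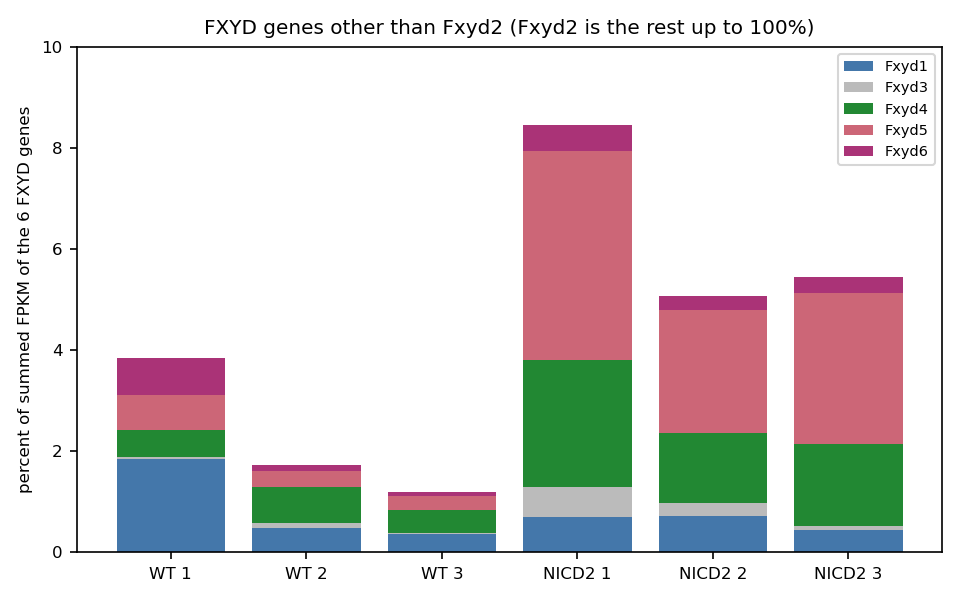
Share of the summed FPKM of the 6 FXYD genes (vertical axis, percent, cut at 10%) taken by each gene other than Fxyd2 in each library; Fxyd2 makes up the rest. The share of Fxyd5 is under 1% in the 3 WT libraries and from 2.43% to 4.14% in the NICD2_Pax8 libraries, and Fxyd1 and Fxyd6 take most in WT replicate 1.

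The other pump genes were the remaining subunits, Fxyd7, the Nkain genes, whose proteins bind the beta subunit, and the related H,K-ATPases. Of 14 listed, 7 were tested, 4 fell and none rose, as was so after scaling. Of all genes 16.2% fell and 45.1% rose, or 25.7% and 28.7% after scaling. Without WT replicate 1, 6 were tested and 3 fell, where 15.6% of all genes fell. Nkain1 had the smallest p of this list and was 19.4-fold lower, at 9.03 to 10.54 FPKM in WT and 0.22 to 1.03 FPKM in NICD2_Pax8 (adjusted p = 0.00011). Atp4a, the catalytic subunit of the gastric H,K-ATPase, was 6.77-fold lower (adjusted p = 0.000682), from 8.66 to 12.04 FPKM in WT to 0.55 to 2.0 FPKM in NICD2_Pax8. The beta subunit Atp1b2 did not pass, at 8.72 to 14.83 FPKM in WT and 9.53 to 10.92 FPKM in NICD2_Pax8.

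Transcripts for apical sodium entry, the load that the pump clears, were mostly lower, while sodium entry itself was not measured. Of 11 channels and carriers tested, 9 fell and 2 rose, with a median log2 fold change of -2.80 against 0.32 over all genes. Of all genes 16.2% fell and 45.1% rose. Slc34a1, Slc5a2, Slc12a1, Slc12a3, Scnn1b and Scnn1g are also in the marker lists above, so the results are not separate. Slc12a3, the thiazide-sensitive NaCl carrier of the distal convoluted tubule, fell 7.04-fold (adjusted p = 6e-05, limma), and Slc34a3, a phosphate carrier of the proximal tubule, 30.6-fold (adjusted p = 0.000218). Slc34a1, the most abundant, fell 15.5-fold, the glucose carrier Slc5a2 23.8-fold, the loop diuretic-sensitive carrier Slc12a1 11.2-fold and the sodium-proton exchanger Slc9a3 4.27-fold. In comparison Fxyd2 fell 2.83-fold, and Atp1b1 was not called. The 2 that rose were the epithelial sodium channel subunits Scnn1g, 3.01-fold, and Scnn1b, 2.35-fold.

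The smaller falls in this group depended on the libraries when FPKM were used as deposited. Scnn1a, the third subunit of that channel, was 1.47-fold lower, and its call was lost without WT replicate 2 or 3 or without NICD2_Pax8 replicate 2 or 3 (adjusted p = 0.0604 to 0.0914). The glucose carrier Slc5a1 was 1.55-fold lower, and its call was lost without WT replicate 2 (adjusted p = 0.0513). Scnn1a also lost its call with the replicate number as a block (adjusted p = 0.0527, limma). After median-of-ratios scaling of all libraries both were called lower (limma), Scnn1a with adjusted p = 0.00993 and Slc5a1 with 0.00621. The authors' deposited table gives q = 0.000145 for Scnn1a and 5.09e-05 for Slc5a1.

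Basolateral partners are the potassium and chloride channels and carriers that work beside the pump. Of 8 tested, 4 fell and none rose, where 16.2% of all genes fell and 45.1% rose. Their median was -0.92 against 0.32 over all genes. Kcnj16 and Kcnj15, potassium channel subunits, were 3.90-fold and 3.60-fold lower (adjusted p = 0.000443 and 0.00112, limma). The sodium-calcium exchanger Slc8a1 was 3.23-fold lower (adjusted p = 0.00039). The bicarbonate carrier Slc4a4 did not pass, at 89.17 to 122.20 FPKM in WT and 115.04 to 148.75 FPKM in NICD2_Pax8. After scaling 6 of 8 fell, with Kcnj10 (log2 fold change -0.38) and Bsnd (-0.76), an accessory subunit of chloride channels, in addition. On that scale 25.7% of all genes fell.

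Among 13 pump regulators, kinases, receptors and transcription factors that act on pump genes or sodium transport, 4 fell and 3 rose. Of all genes 16.2% fell and 45.1% rose. The median was -0.13 against 0.32 over all genes. Sgk1, the aldosterone-induced kinase, fell 6.90-fold (adjusted p = 0.000185, limma), from 148.53 to 231.61 FPKM in WT to 20.86 to 34.62 FPKM in NICD2_Pax8. Wnk1, a kinase of the NaCl carrier pathway, fell 2.20-fold (adjusted p = 0.000268). The glucocorticoid-induced gene Tsc22d3 fell 3.32-fold and Pcbd1, a transcription cofactor and the most abundant of the list, 2.05-fold. Stk39 and Wnk4, kinases that act on the NaCl carrier, rose 2.45-fold and 2.22-fold. After scaling, 7 regulators were lower and 2 higher, where 25.7% and 28.7% of all genes were. Their median was then -0.41 against 0.02.

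**Figure D5:**
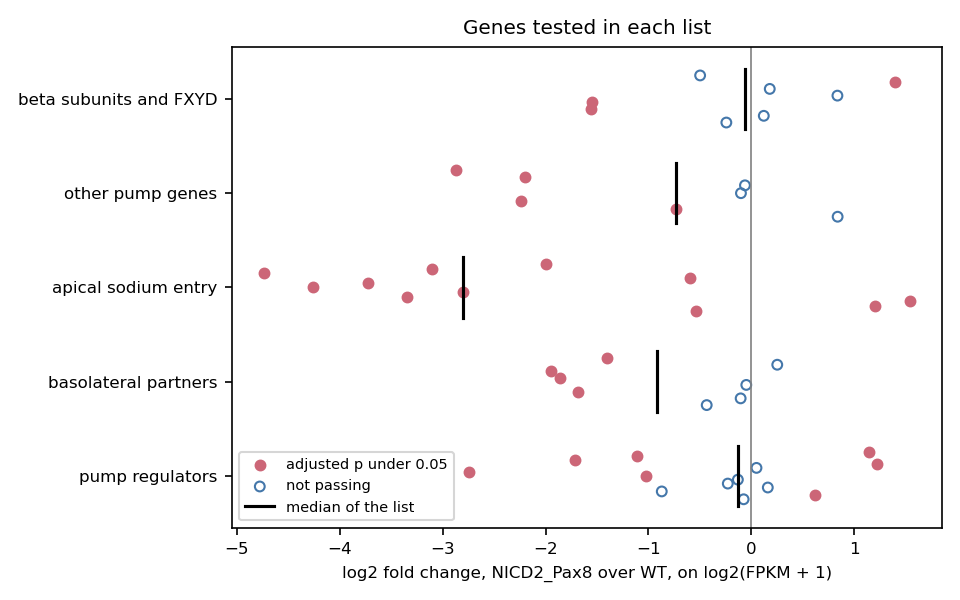
Log2 fold change of NICD2_Pax8 over WT on log2(FPKM + 1) (horizontal axis) for each tested gene of the 5 lists, with filled points for an adjusted p under 0.05, open points for the rest and a black line at each list's median. The beta subunits and FXYD genes centre near 0 with calls on both sides, and apical sodium entry lies lowest, with a median of -2.80.

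The genes whose pattern over the 6 libraries was most like each member's are given as a description, by Pearson r of log2(FPKM + 1) over all genes with a position and outside the lists. For Fxyd2 they were Sdhc (r = 0.9989) and Uqcrfs1 (r = 0.9986), subunits of respiratory complexes, and Acsm1 (r = 0.9982), a medium-chain acyl-CoA synthetase. Sdhc was at 335.49 to 372.54 FPKM in WT and 175.27 to 246.93 FPKM in NICD2_Pax8. For Fxyd5 they were Slc27a1 (r = 0.9984), a fatty acid transport protein, Rabif (r = 0.9981) and Trmt112 (r = 0.9979). These points share 6 libraries in 2 groups, so a group difference alone gives a high r.

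For Fxyd1 the nearest gene was Maob (r = 0.9969), a monoamine oxidase, at 11.05 FPKM in WT replicate 1 and at most 2.32 FPKM elsewhere, followed by Rtl8c and Snrpn. For Fxyd6 it was a predicted gene without a symbol (r = 0.996), then Sgce (r = 0.995) and Procr (r = 0.9943), the last at 11.68 FPKM in WT replicate 1 and at most 1.88 FPKM elsewhere. For Atp1b1 they were Ndfip2 (r = 0.9933), Peli2 and Pls1, and for Atp1b3 Zbtb11 (r = 0.9964), Polb and Srp19. Frzb (r = 0.9923), Prkcq and Frem1 were nearest to Fxyd4, and Mtmr4 (r = 0.9517), Rap1gap2 and Gsr to Fxyd3.

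The 250 bases before 8 annotated transcript starts of 7 of the members were searched on both strands for 2 motifs (RefSeq, GRCm38). Fxyd2 was not among them. Of the 8 windows, 4 lie inside the gene as the file places it (Fxyd1, Fxyd4, Fxyd6 and 1 of the Atp1b3 starts), before an internal start. GTGGGAA, the letters bound by the Notch partner RBPJ, was in 0 of 8 windows and in 5.42% of 32851 promoters of the same length. The E-box CACGTG was in 1 of 8, at 1 of the Atp1b3 starts, and in 6.02% of all.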

How the data were processed

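Bowtie 0.12.2 and mm8 are named in the submitters' processing notes; the tool that counted fragments is not given in the sources used here. The deposited values are FPKM per library, per the file headers, with 4370 rows without values and 0 further columns of single libraries. For the q-values in the authors' deposited table the file headers name DESeq2, and for its log2 fold changes and p-values they name no tool. Its columns for single pairs of libraries were not used. Positions matched RefSeq GRCm38 in start and end for 7 of the 8 members and 88.2% of 22002 gene identifiers, and are read as GRCm38. FPKM of a gene with several transcripts depends on the length the authors used.

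From the FPKM, limma 3.58.1 (R 4.3.3, mean-variance trend, two-sided) was run on log2(FPKM + 1) with genotype as the term, over genes that reached 1 FPKM in 3 libraries or more. Fold changes on this scale understate the change of low genes; folds are ratios of mean FPKM, errors are SD, and intervals are 95% intervals from limma. The procedure was tested on simulated data in which few genes changed, in both directions. That test does not cover changes in most genes or a shift of the median, as in these data. Ratios within a library were tested by exact permutation. Depth was inferred from the whole-fragment steps that low FPKM of genes with 1 transcript show (72.4% to 78.5% within 0.15 of a whole number) and used for precision only.

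Members, gene lists and marker lists were chosen with earlier results of these data known. Named are all 8 members; genes of the pathway lists with an adjusted p under 0.05, led by the 2 smallest p and the most abundant; the 3 genes most alike each member; and the most abundant marker of each list. Other genes with values were chosen after their values were seen. A few list genes are counted but not described singly here. The settings tried in place of these were no filter, a pseudocount of 0.1 or 5, scaling by quantiles, median of ratios or upper quartile, a block for the replicate number, leaving out 1 library at a time, and median-of-ratios scaling without WT replicate 1. Motif windows were cut from GENCODE M21 transcripts with coding positions from its annotation.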

Additional observations from a re-analysis of the deposited data

How the results depend on the processing

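Fxyd2 and Fxyd5 kept their direction and their call in all 14 alternatives. The fewest genes called were 6454 of 12884 tested, without NICD2_Pax8 replicate 3. The most were 8739 of 19503, with no filter, against 8285 of 13500 in the main fit, so these counts have unlike totals. Of the calls, 73.6% were higher with FPKM as deposited but 52.7% after median-of-ratios, 50.4% after upper quartile and 52.1% after quantile scaling. The sign of Atp1b3 (0.12) turned to -0.23 with median-of-ratios scaling, -0.25 with upper quartile scaling and -0.18 with median-of-ratios scaling without WT replicate 1. The sign of Fxyd4 (0.18) turned to -0.12 with quantile, -0.16 with median-of-ratios and -0.19 with upper quartile scaling, and to -0.34 with median-of-ratios scaling without WT replicate 1. The same scalings moved the median of all genes from 0.32 to between 0.00 and 0.02. Fxyd6 went from -0.50 to 0.31 without WT replicate 1 and ranged from -0.93 to 0.31 over the libraries left out. Members called went from 3 to 5 without that library (2 higher, 3 lower), where 66% of all genes were called. They ranged from 2 to 5 over the libraries left out. The count was 2 without NICD2_Pax8 replicate 1 or 3, where 7164 of 12883 and 6454 of 12884 genes were called. The 4 pathway lists stayed within 1.5 times their counts in all 13 alternatives run on them. With the replicate number as a block, 7982 of 13500 genes and 4 of the 8 members were called, Fxyd3 in addition (adjusted p = 0.0486, limma). Same-numbered libraries had correlations of deviations of 0.10, -0.05 and 0.01, and 1 of the crossed pairs reached 0.20. With so few libraries these values cannot tell whether the numbers pair the samples, and the labels name no pairing. Depth limits Fxyd3, which rests on about 1.0 to 34.9 fragments a library.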

Other observations

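Atp4a was expressed in WT kidney at 9.10, 8.66 and 12.04 FPKM, whereas Atp4b, the beta subunit that pairs with it in stomach, was at 0.06 FPKM in WT replicate 1 and listed at 0 in the other 5 libraries. Atp12a, the colonic H,K-ATPase of the collecting duct, was at 0.70, 0.55 and 1.06 FPKM in WT and at 0.93, 1.91 and 4.54 FPKM in NICD2_Pax8, and did not pass the test (adjusted p = 0.0883, limma). It was called higher without NICD2_Pax8 replicate 1 (adjusted p = 0.0228) and with the replicate number as a block (adjusted p = 0.0438). Without WT replicate 3, NICD2_Pax8 replicate 2 or NICD2_Pax8 replicate 3 it did not pass the filter on low values and was not tested. Intercalated cells, which use these proton and potassium pumps, had 6 of 6 markers lower, where 16.2% of all genes were (25.7% after scaling). Led in abundance by Atp6v1b1, the markers summed to 105.6 to 140.5 FPKM in WT and 32.1 to 40.5 FPKM in NICD2_Pax8. The part of intercalated cells in the values of Atp4a and Atp12a was not tested.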
